A study of Mus musculus with 33 samples.

Results

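Microglia sorted from the corpus callosum (CC) and the cerebellum (Cb) of mice at postnatal day (P) 42 were compared. The libraries were chosen by their region and age labels, which gave 4 from the CC and 4 from the Cb, 8 of the 33 in the series. The others came from the cortex (Cx) at P42 and from the CC, Cx and Cb at P7 and P10. In each P42 group 2 libraries came from female and 2 from male mice. The mice were kept free of specific pathogens, received no treatment and were perfused before dissection. Live cells that were CD45+, CD11b+ and Gr1- were sorted, and RNA sequencing libraries were made from amplified cDNA. The study bred Cx3cr1 GFP/WT and wildtype C57BL/6J mice, and the labels of these libraries give no genotype. The labels do not state either whether cells of several mice were pooled or whether CC and Cb libraries came from the same mice. The p-values therefore measure only the spread between these samples.

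Microglia are the resident macrophages of the brain. Signalling through Csf1r keeps them alive, and TGF-beta maintains the expression of their typical genes, such as P2ry12, Tmem119 and Sall1. The CC is a tract of myelinated axons, whereas the cerebellum as dissected holds white matter together with the granule, Purkinje and molecular layers. Microglia of the adult cerebellum are known for an immune-alert, clearance-oriented state when they are set against microglia of the forebrain.

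The labelled cell type was borne out by its markers. Csf1r, the receptor named above, stood at 13800 CPM (reads per 1000000 counted reads, scaled with TMM factors) in the CC and 15410 CPM in the Cb. The summed level of 30 homeostatic genes ranged from 94300 to 114000 CPM in the CC and from 94560 to 103500 CPM in the Cb. The libraries themselves differed between the regions. Between 22761090 and 31049363 reads were counted on genes in the CC and between 28692397 and 45057646 in the Cb, and 14868 to 15883 genes against 16972 to 18753 genes had a read, without overlap. Of 3398 genes with a mean of 0.5 to 5 CPM over the 8 libraries, 16.7 to 26.9% had no read in a CC library and 2.91 to 9.36% in a Cb library, while Cx libraries of P42 lay at 8.03 to 12.8%. Gene length moved with the comparison as well. Among the 9153 genes that averaged 5 CPM or more, the median log2 fold change (CC minus Cb throughout) was 0.19 in the shortest and -0.13 in the longest of 5 equal classes of exon length. With all libraries thinned to the smallest total, 97 genes were called between the regions by the rule given below, 25 higher in the CC and 72 in the Cb, and 80 of them were among those called without thinning. The part of gene length and of the genes without a read was otherwise not tested. Replicate 3 of the Cb held 170 reads of added spike-in sequences and the other 7 libraries 7 to 19.

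**Figure D1:**
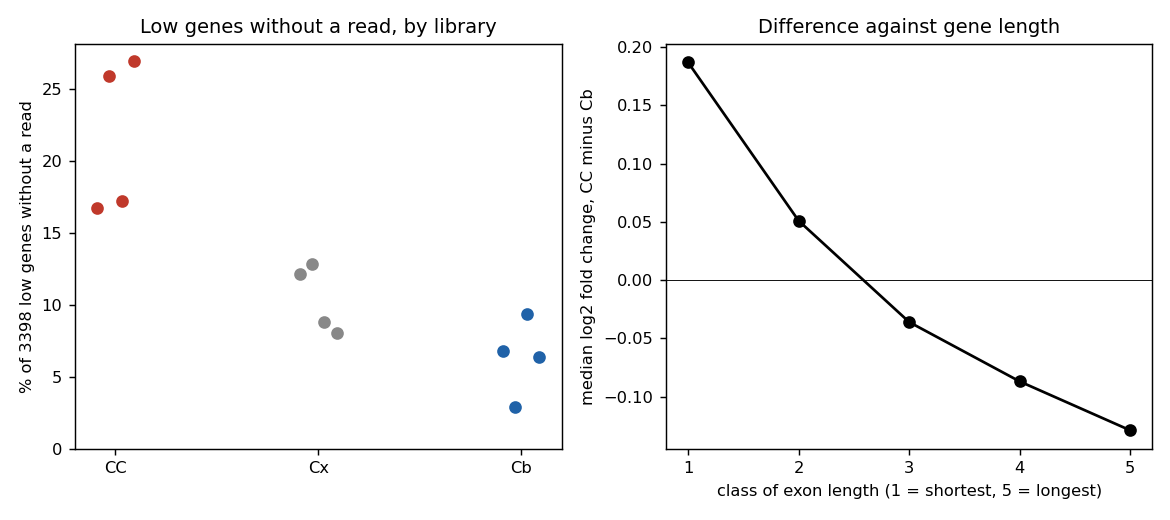
Left, the share (%) of the 3398 genes at 0.5 to 5 CPM that had no read, 1 point per library at P42 for the CC, Cx and Cb. Right, the median log2 fold change (CC minus Cb) of the 9153 genes at 5 CPM or more, in 5 equal classes of total exon length. The CC points lie at 16.7 to 26.9%, above all Cb points, and the median goes from 0.19 in the shortest to -0.13 in the longest class.

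Adult callosal and cerebellar microglia differed in few genes. Callosal microglia had more RNA of Crybb1, Upk1b, Khdrbs3, Fcrl1, Bank1 and Pecam1, and cerebellar microglia had more of Sdc3, Pign, Dcp1a and Ly9. Of 20917 genes tested, 88 (0.421%) passed an adjusted p of 0.01 with an absolute log2 fold change of at least 1 (edgeR's quasi-likelihood test with Benjamini-Hochberg adjustment). Of these, 22 (0.105%) were higher in the CC and 66 (0.316%) higher in the Cb. At an adjusted p of 0.01 and any fold change 267 genes (1.28%) met the limit, of which 142 had more RNA in the CC. An unadjusted p under 0.05 was met by 4286 genes (20.5%). The model shared its estimate of the spread over all 33 libraries. At P42 the CC libraries were less alike than those of the other regions. Pearson correlations (10086 genes) were 0.80 to 0.89 within the CC, 0.93 to 0.95 within the Cb and 0.94 to 0.96 within the Cx. Those of CC with Cb libraries were 0.83 to 0.92. A shared estimate does not follow such differences between groups, and their part in the calls was not tested. Fitted on the 8 libraries alone the model called 1 gene, Crybb1, and on the 12 libraries of P42 it called 8. Crybb1, Upk1b, Khdrbs3, Sdc3, Dcp1a and Fam129a were among these 8, while Fcrl1, Bank1, Pecam1, Ezh2, Pign, B430010I23Rik and Ly9 were not called in either of these fits. In the 33 libraries limma-voom called 173 of the 20917 genes, 155 of them higher in the Cb. DESeq2 called 419, of which 316 were higher in the Cb. The counts of these 2 tools within gene lists are to be read against these totals.

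More called genes were higher in the Cb than in the CC, above all among genes with few reads. Of the 88 genes, 46 stayed under 5 CPM in both regions, and 39 of those 46 were higher in the Cb. In 37 of the 66 genes higher in the Cb at least 1 CC library had no read. In 31 of the 88 genes every CC library held 3 reads or fewer, against 6 genes with every Cb library there. These genes lie in the range in which the CC libraries missed more genes than the Cb libraries. At 5 CPM or more in the higher region, and with no overlap between the 4 CC and the 4 Cb libraries, 41 genes (0.196%) remained, 14 higher in the CC and 27 higher in the Cb. Without regard to level or test, the regions did not overlap in 1536 genes (7.34%). The only other called gene at that level was Tmem44, which is named here although it fell outside the rule, with 7.90 to 30.1 CPM in the CC and 1.46 to 8.65 CPM in the Cb.

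**Figure D2:**
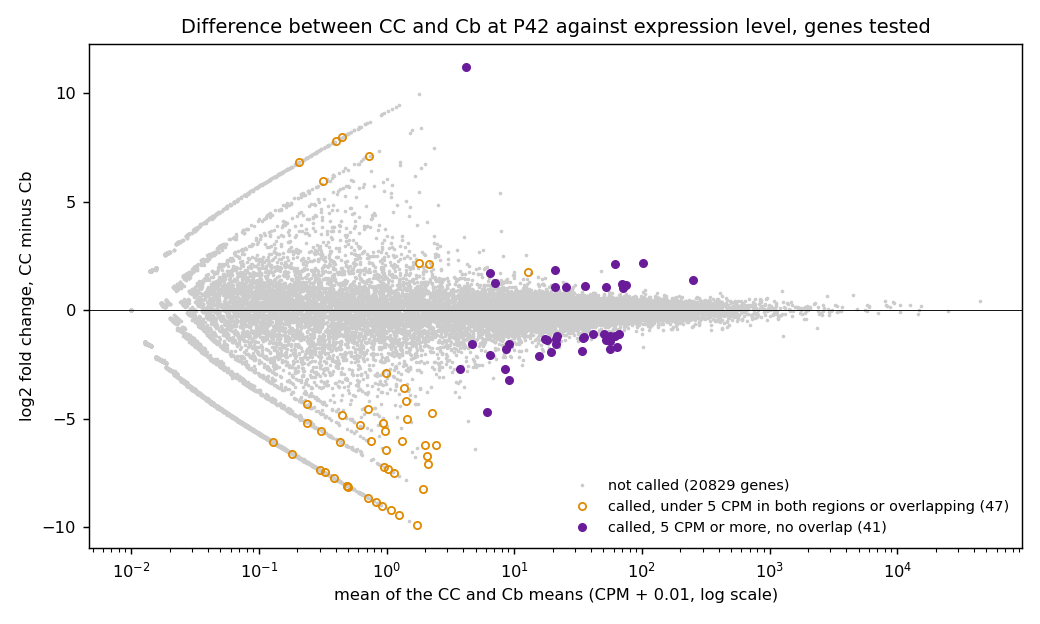
Log2 fold change (CC minus Cb) against the mean of both region means (CPM + 0.01, log axis), 1 point per gene tested. Filled points are the 41 called genes at 5 CPM or more without overlap, and open points the other 47 called genes, most of which lie under 5 CPM and below 0.

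Of the 29 non-overlapping genes named by rule (all 14 higher in the CC and the 15 with the largest fold changes of the 27 higher in the Cb), 12 stayed past both limits when each of the 8 libraries was left out in turn. Of these 12, 11 are described first.

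Crybb1 encodes a beta-crystallin best known from the lens and is also expressed by microglia. It had the lowest adjusted p. Its level was 380, 347, 338 and 382 CPM in the CC and 133, 120, 142 and 155 CPM in the Cb. The lowest CC library thus stood well above the highest Cb library. The log2 fold change was 1.40 ± 0.10 (SE; adjusted p = 6.17e-10 by edgeR), and the Cx libraries averaged 444 CPM ± 68.7 (SD, n = 4). The gene lies on chromosome 5 of GRCm38 (112255815 to 112269585, plus strand).

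Upk1b, a tetraspanin gene named for the uroplakin plaques of the bladder lining, had the largest fold change among these genes. It was measured at 210, 133, 140 and 181 CPM in the CC and at 40.1, 21.7, 33.5 and 50.4 CPM in the Cb. All CC libraries were higher than all Cb libraries, by a log2 fold change of 2.19 ± 0.33 (SE; adjusted p = 0.000236, edgeR), and the Cx mean was 240 CPM. Khdrbs3 encodes an RNA-binding protein of the STAR family that takes part in splicing. It gave 122, 99.2, 77.0 and 103 CPM in the CC and 23.6, 19.5, 16.4 and 34.1 CPM in the Cb. The groups did not overlap, the log2 fold change was 2.10 ± 0.21 (SE; adjusted p = 9.98e-07, edgeR), and the Cx mean of 114 CPM was near that of the CC.

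A pair of genes known from B cells followed, Fcrl1, an Fc receptor-like surface protein, and Bank1, a scaffold of B cell receptor signalling. Fcrl1 stood at 99.8, 101, 118 and 97.6 CPM in the CC and at 54.5, 31.0, 51.7 and 48.4 CPM in the Cb, and its log2 fold change was 1.17 ± 0.15 (SE; adjusted p = 4.12e-05, edgeR). Bank1 was at 79.5, 119, 114 and 73.8 CPM in the CC and at 50.7, 33.0, 45.8 and 40.5 CPM in the Cb, a log2 fold change of 1.18 ± 0.18 (SE; adjusted p = 0.000278, edgeR). Every CC library exceeded every Cb library for both genes. Other genes of the B lineage did not differ in this way. Ighm averaged 439 CPM in the CC and 458 CPM in the Cb and Cd79b 95.5 and 84.5 CPM (adjusted p = 0.704 and 0.4, edgeR), while Cd79a, which forms the B cell receptor complex with Cd79b, averaged 0.151 and 0.344 CPM. The summed markers of lymphocytes and NK cells lay at 499 to 582 CPM in the CC and 518 to 561 CPM in the Cb. Most of that sum was Ighm and Cd79b. Of the 10 genes of this list tested, 7 had positive and 3 negative values, with 0 called by edgeR. Their median log2 fold change was 0.89, or 0.46 with genes at a floor of 3 counts set to their bound.

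Pecam1, an adhesion molecule of endothelial cells and leukocytes, was at 52.1, 37.7, 20.3 and 20.4 CPM in the CC and at 14.3, 7.29, 4.86 and 9.99 CPM in the Cb. The regions were apart although the CC libraries varied widely, and the log2 fold change was 1.84 ± 0.32 (SE; adjusted p = 0.000932, edgeR). Pecam1 was not called by limma-voom (adjusted p = 0.0149) nor by edgeR on the 12 libraries of P42 (adjusted p = 0.0556). Of the endothelial markers, Cldn5 averaged 0.00826 CPM in the CC and had no read in the Cb, and Flt1 and Cdh5 averaged 0.98 and 1.72 CPM in the CC and 0.0172 and 0.178 CPM in the Cb. The sum of that list was 780 to 984 CPM in the CC and 685 to 868 CPM in the Cb, most of it Bsg (814 and 708 CPM), which microglia also express, and its part in the difference of Pecam1 was not tested. Ezh2, the methyltransferase of the Polycomb repressive complex that marks histone H3, was lower in level, with 10.6, 11.1, 7.54 and 10.7 CPM in the CC and 4.27, 6.19, 2.79 and 3.57 CPM in the Cb. Its log2 fold change was 1.24 ± 0.21 (SE; adjusted p = 0.000672, edgeR), and the same 2 fits did not call it (adjusted p = 0.0227 by limma-voom and 0.125 by edgeR). Unlike the genes above, Ezh2 had a Cx mean (4.03 CPM) near that of the Cb.

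The other 7 genes higher in the CC lost a limit when at least 1 library was left out. They were Actg2, N4bp2, Psat1 (serine synthesis), Epn2 (an epsin of clathrin-coated pits), H2-Oa, 1110051M20Rik and Cib1 (a calcium- and integrin-binding protein). 1110051M20Rik shares exon sequence with Arfgap2 on the other strand, and since the use of strand in counting is not known, reads of the pair cannot be told apart. H2-Oa encodes a chain of H2-O, which restrains peptide loading on MHC class II molecules. Of 14 genes of MHC class II presentation edgeR called H2-Oa alone (0.421% of all genes were called). Of the 14, 5 had positive and 9 negative values (median log2 fold change -0.155). Cd74 of this list was called higher in the Cb without replicate 2 of the CC (log2 fold change -1.48, adjusted p = 0.00275, edgeR). Ciita was called higher in the Cb by limma-voom. H2-Oa was at 61.1 to 77.9 CPM in the CC and at 27.7 to 44.1 CPM in the Cb (log2 fold change 1.05 ± 0.14, SE). It fell under the fold limit without replicate 3 of the CC or replicate 4 of the Cb. Psat1 did so without replicate 2 or 4 of the CC, and Cib1 without replicate 2 of the CC or replicate 1 or 2 of the Cb. Actg2, a smooth muscle actin, rested on a single library. Replicate 2 of the CC held 32.0 CPM, the other CC libraries 1.43, 0.0331 and 0.0336 CPM and the Cb libraries no read, and without that replicate the gene was not called (adjusted p = 0.023, edgeR). Leaving out any 1 Cb library ended the call as well, with adjusted p from 0.0117 to 0.0174 (edgeR). The same CC library held 56.5 CPM of Acta2, another smooth muscle actin, against 0.437 to 2.71 CPM in the other CC libraries and 0.0522 to 0.944 CPM in the Cb.

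Among the genes higher in the Cb, Sdc3 and Pign had the highest levels of those that stayed past both limits with any library left out. Sdc3 encodes syndecan 3, a heparan sulfate proteoglycan of the cell surface, and was at 28.8, 39.3, 30.0 and 20.2 CPM in the CC and at 76.7, 113, 101 and 97.8 CPM in the Cb. The log2 fold change was -1.72 ± 0.22 (SE; adjusted p = 2.82e-05, edgeR), and the Cx mean of 54.1 CPM lay between the regions. Pign, which encodes an enzyme of GPI anchor synthesis, gave 11.5, 25.2, 14.2 and 6.85 CPM in the CC and 54.9, 55.8, 58.3 and 43.1 CPM in the Cb. Its highest CC library stayed below the lowest Cb library, with a log2 fold change of -1.88 ± 0.26 (SE; adjusted p = 5.11e-05, edgeR).

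Dcp1a, a cofactor of mRNA decapping, was at 6.13, 5.08, 6.64 and 5.58 CPM in the CC and at 28.5, 23.4, 30.3 and 19.1 CPM in the Cb. The CC libraries were close to each other and far below those of the Cb, and the log2 fold change was -2.11 ± 0.30 (SE; adjusted p = 0.000102, edgeR). B430010I23Rik, at 2.15 to 6.36 CPM in the CC and 10.1 to 16.6 CPM in the Cb, shares exon sequence on the opposite strand with Mtus1, and reads of such a pair could not be told apart if strand was not used in counting.

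**Figure D3:**
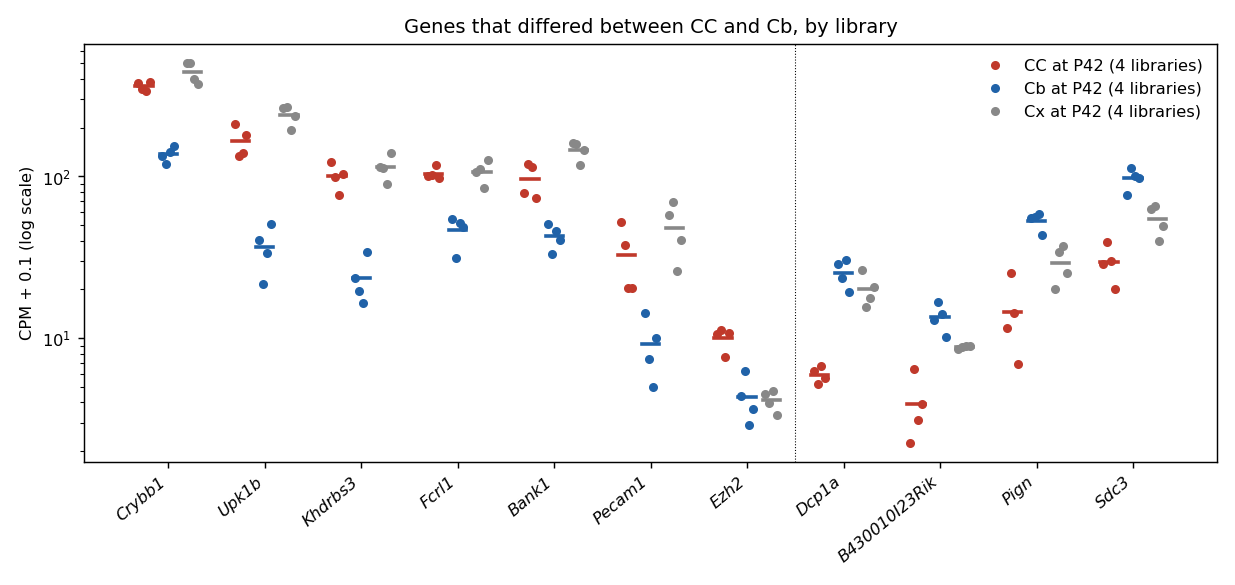
CPM + 0.1 (log axis) of 11 genes called with any 1 of the 8 libraries left out, 1 point per library at P42 for the CC, Cb and Cx, with a bar at each mean. The 7 genes left of the dotted line are higher in all 4 CC than in all 4 Cb libraries and the 4 genes on the right are lower.

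The other named genes higher in the Cb were Zfp51, Mypopos, Asb1, Snx16, Prr5l, Fam129a, Ncoa1, Tmem94, Zfas1 and Ly9, with log2 fold changes from -1.43 to -3.24. With 1 library left out, Ncoa1 and Prr5l kept their call in 1 of 8 fits and Asb1 and Snx16 in 2. Fam129a and Tmem94 kept it in 4, Mypopos in 5 and Zfas1 in 7. Mypopos, Asb1, Prr5l and Ncoa1 were also not called with a replicate block, nor Prr5l with sex in the model. Zfp51, a zinc finger protein, was at 0.215, 0.0458, 6.41 and 0.235 CPM in the CC and at 21.2, 14.3, 16.3 and 14.4 CPM in the Cb. Replicate 3 of the CC stood above the other CC libraries, and without it the log2 fold change went from -3.24 to -6.57 (adjusted p = 0.00962 and 1.62e-09, edgeR). Without any other of the 8 libraries Zfp51 was not called. Ly9, a SLAM family receptor of leukocytes, was at 27.0 to 35.7 CPM in the CC and 58.5 to 113 CPM in the Cb, and at 6.47 to 21.8 CPM in the Cx. Its log2 fold change was -1.43 ± 0.27 (SE; adjusted p = 0.00245, edgeR), and among the libraries left out it lost significance only without replicate 3 of the Cb (adjusted p = 0.0138, edgeR). Zfas1 shares exon sequence with Znfx1 on the other strand. Il1rl2, the receptor of interleukin 36, was not among the 15 and is named after its values were seen, with 21.0 CPM ± 5.19 (SD, n = 4) in the CC and 49.7 CPM ± 13.9 in the Cb (log2 fold change -1.24 ± 0.27, SE). Siglec1, a sialic acid-binding lectin of macrophages, and Cfp, the complement regulator properdin, were called higher in the Cb at levels near the detection limit. Siglec1 had at most 1 read in a CC library and 0 to 3.71 CPM in the Cb, at least 16.9-fold higher against a floor of 3 counts per library. Cfp had no read in the CC and 0.551 to 2.42 CPM in the Cb, at least 12.7-fold higher against the same floor. With 1 library left out Siglec1 kept its call in 1 of 8 fits, the one without replicate 3 of the Cb, and Cfp in 3 of 8. Neither gene was called with a replicate block or on the 12 libraries of P42, and Siglec1 was also not called by limma-voom, with sex in the model or after thinning.

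Of the 29 named genes, 18 matched at least 1 entry in RefSeq's promoter windows of GRCm38.p6 (250 bases before to 50 after the start). The bases before the start are shown for the genes with the largest fold changes in each direction that have an entry and were called with any library left out, Crybb1 (chr5:112255570-112255819, plus strand) and Dcp1a (chr14:30479315-30479564, plus strand), both 5′ to 3′.
Crybb1: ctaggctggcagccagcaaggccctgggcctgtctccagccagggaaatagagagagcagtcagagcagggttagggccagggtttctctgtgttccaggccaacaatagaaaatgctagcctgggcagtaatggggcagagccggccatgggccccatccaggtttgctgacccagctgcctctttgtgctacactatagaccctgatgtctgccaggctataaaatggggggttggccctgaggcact
Dcp1a: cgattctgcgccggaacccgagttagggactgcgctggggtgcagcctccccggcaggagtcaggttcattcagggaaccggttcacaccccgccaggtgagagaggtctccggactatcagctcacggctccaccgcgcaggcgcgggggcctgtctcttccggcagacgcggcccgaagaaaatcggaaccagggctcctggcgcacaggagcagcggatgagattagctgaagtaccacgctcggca
Both strands were searched for GGGCGTGG or CCACACCC (KLF type), TGANTCA (AP-1), GAAANNGAA (interferon-stimulated response element) and CACGTG (E-box). None of these was found in the windows of Crybb1 and Dcp1a, so no letters are in capitals. Of the 22 windows of the 18 genes, 19 held no match, Fcrl1 held the AP-1 letters, Bank1 GAAANNGAA and Cib1 CACGTG. Over all 32851 windows the shares with a match were 8.6%, 7.8%, 8.6% and 7.2% in the order of the motifs. A match is not a bound site, and its absence says only that these letters are not in the window.

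The gene lists were written with earlier results of these data known. Among 30 homeostatic genes, 2 were called, both higher in the CC (Crybb1 and Upk1b), where 0.105% of all genes were called in that direction, and 19 had positive values, with a median log2 fold change of 0.09 against -0.04 for all genes tested. Below the fold limit, the fructose transporter gene Slc2a5 was higher in the CC, at 1920, 1765, 1438 and 1353 CPM against 936, 829, 743 and 1019 CPM in the Cb. The log2 fold change was 0.88 ± 0.12 (SE; adjusted p = 4.12e-05, edgeR), and all CC libraries lay above all Cb libraries. Fcrls, an Fc receptor-like gene of microglia named after its values were seen, also passed the adjusted p limit, with 5551 CPM ± 915 (SD, n = 4) in the CC and 3476 CPM ± 248 in the Cb (log2 fold change 0.68). Most other genes by which microglia are recognised did not pass. P2ry12, the ADP receptor, averaged 10650 and 8373 CPM (log2 fold change 0.35, adjusted p = 0.0212, edgeR), and Cx3cr1, the fractalkine receptor, 2950 and 3069 CPM (-0.06, adjusted p = 0.625, edgeR).

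All 41 nuclear genes of oxidative phosphorylation, which encode subunits of the respiratory chain and ATP synthase, had higher values in the CC, with a median log2 fold change of 0.33. None was called by edgeR, limma-voom or DESeq2, 30 had an unadjusted p under 0.05 (20.5% of all genes did), and 6 passed the adjusted p of 0.01 (1.28% of all genes did), namely Ndufs8, Ndufb3, Ndufb8, Ndufb9 and Ndufv1 of complex I and Sdhc of complex II. Their sum was 5665, 5947, 5525 and 5683 CPM in the CC and 4243, 4338, 4938 and 5190 CPM in the Cb, without overlap, and 5160 to 5585 CPM in the Cx. Ndufs8 stood at 124, 148, 113 and 119 CPM in the CC and 69.4, 78.8, 86.8 and 94.4 CPM in the Cb (log2 fold change 0.61 ± 0.12, SE), and its adjusted p rose to 0.0145 to 0.0161 without replicate 2 of the CC or replicate 1 or 2 of the Cb (edgeR). Ndufb3 kept the limit in 3 of the 8 fits with a library left out. Both genes lost it by limma-voom and on the 12 libraries of P42. Ndufb3 also lost it with a replicate block and with no filter beyond genes with no read. The groups were apart in 15 of the 41 genes, against 7.34% of all genes tested. The list is short in exon length, with a median of 1831 bases against 4219 bases for all genes at 5 CPM or more, and the shortest class of those genes (up to 2364 bases) had a median of 0.19. Genes with an adjusted p of 0.01 or less at that level had a median length of 2382 bases where higher in the CC and 5605 bases where higher in the Cb. Of 29 genes of glycolysis and the hypoxia response, 18 had positive values, with a median of 0.15, and Slc2a5 alone passed. Aldoa, the glycolytic aldolase, averaged 396 CPM in the CC and 293 CPM in the Cb (log2 fold change 0.44, adjusted p = 0.0159, edgeR).

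In several lists of immune receptors and signalling most genes had higher values in the Cb, by less than the fold limit. Of all 20917 genes tested, 10963 had negative values. The list of chemokines and cytokines had no common direction, with 17 positive and 17 negative values among 34 genes tested (median log2 fold change -0.03). Of 35 chemokine and cytokine receptor genes tested, 30 had negative values (median log2 fold change -0.26), none was called by edgeR and 3 passed the adjusted p of 0.01, Tgfbr2, Il17ra and Csf2ra, with 17 at an unadjusted p under 0.05. As stated above, 1.28% of all genes passed that adjusted p and 20.5% that unadjusted p, and the counts of the lists that follow are to be read against these shares. Without replicate 3 of the CC edgeR called 2 genes of this list, Tnfrsf11a higher in the Cb and Tnfrsf17 higher in the CC (adjusted p = 0.00662 and 0.00442). Tgfbr2, the type II receptor of TGF-beta, was at 522, 553, 608 and 526 CPM in the CC and 848, 862, 746 and 670 CPM in the Cb, with no overlap and a log2 fold change of -0.50 ± 0.08 (SE; adjusted p = 0.00042, edgeR). Tgfbi, a matrix protein induced by TGF-beta, also passed, at 45.1 to 72.2 CPM in the CC and 73.6 to 115 CPM in the Cb (log2 fold change -0.85). In the TGF-beta, BMP and activin list 27 of 35 genes had negative values. The median was -0.31, or -0.19 over the 24 genes at 5 CPM or more. Tgfbr2 and Tgfbi were the 2 that passed the adjusted p, with none called. Tgfbi lost the limit without replicate 1 or 4 of the CC or replicate 2 of the Cb (adjusted p = 0.0115, 0.0112 and 0.0133, edgeR), and was called without replicate 3 of the CC (log2 fold change -1.01, adjusted p = 0.000445, edgeR). Fitted on the 12 libraries of P42 or on the 8 compared, neither Tgfbr2 nor Tgfbi passed the adjusted p. The same held for Tlr2, C3ar1, Cd83, Myc and Zeb2, which are described below.

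Toll-like receptor 2, which senses bacterial lipoproteins, was among 36 pattern recognition and Fc receptors, of which 23 had negative values (median -0.16) and 1, Siglec1, was called, a call that held in 1 of the 8 fits with a library left out. Tlr2 gave 237, 281, 406 and 275 CPM in the CC and 542, 568, 550 and 519 CPM in the Cb. The Cb libraries were close to each other and above every CC library, and the log2 fold change was -0.86 ± 0.13 (SE; adjusted p = 0.000309, edgeR). Without replicate 3 of the CC, the highest of the CC libraries, Tlr2 was called, and so was Tlr4 (log2 fold change -1.05 and -1.14, adjusted p = 1.25e-05 and 9.51e-05, edgeR). C3ar1, the receptor of the complement fragment C3a, was at 390 to 636 CPM in the CC and 800 to 982 CPM in the Cb (log2 fold change -0.68 ± 0.11, SE). It was 1 of the 2 complement genes of 18 tested that passed the adjusted p, beside Cfp, whose call held in 3 of the 8 fits with a library left out. C1qb and C1qc, subunits of the initiator of the classical pathway, averaged 13650 and 11460 CPM in the CC and 11540 and 9663 CPM in the Cb (adjusted p = 0.0935 and 0.109, edgeR).

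Of 27 genes of the NF-kB pathway and its feedback, 20 had negative values, and Cd83 and Icosl passed the adjusted p. The median was -0.35, or -0.28 over the 21 genes at 5 CPM or more. Cd83, a surface protein of activated antigen-presenting cells, was at 350, 311, 339 and 234 CPM in the CC and 490, 599, 564 and 516 CPM in the Cb. The log2 fold change was -0.81 ± 0.11 (SE; adjusted p = 9.09e-05, edgeR), and the Cx mean was 336 CPM. Icosl, the ligand of the T cell costimulator Icos, averaged 71.3 CPM ± 6.09 (SD, n = 4) in the CC and 131 CPM ± 14.7 in the Cb, and lost the limit without any 1 of replicate 2 of the CC and replicates 1, 2 and 3 of the Cb (adjusted p from 0.0127 to 0.0175, edgeR). The kinase and inhibitor genes Ikbkb, Ikbkg and Nfkbie did not pass and had log2 fold changes of 0.02, -0.02 and 0.08. With all libraries edgeR called no gene of this list, 8 had an unadjusted p under 0.05 (20.5% of all genes did), and without replicate 3 of the CC it called Malt1 (log2 fold change -2.06, adjusted p = 0.0034, edgeR).

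The interferon list had the lowest median of the lists of signalling genes, -0.44, with 36 of 42 genes negative, 0 called and 0 at an adjusted p of 0.01 by edgeR, and 16 with an unadjusted p under 0.05 (20.5% of all genes). DESeq2 called 2 of its genes, Ifi27l2a and Rsad2, and limma-voom 1, Oasl1, where they called 419 and 173 of all 20917 genes. Other settings of edgeR called 1 or 2 genes, all higher in the Cb. Rsad2 and Slfn2 were called without replicate 2 of the CC (adjusted p = 0.00999 and 0.00906, edgeR) and without replicate 4 of the Cb (adjusted p = 0.00862 and 0.00984, edgeR). Rsad2 was also called with RLE factors, with the filterByExpr filter and after thinning, Slfn5 without replicate 1 of the CC and Ifi27l2a with a replicate block. Its summed level was 1263, 1256, 1247 and 956 CPM in the CC and 1513, 1615, 1695 and 1342 CPM in the Cb, which did not overlap, and 1350 to 2230 CPM in the Cx. Rsad2, the antiviral enzyme viperin, averaged 0.12 CPM in the CC and 9.65 CPM in the Cb (adjusted p = 0.0112, edgeR), and Ifit2 7.31 CPM ± 8.46 (SD, n = 4) and 20.3 CPM ± 8.37 (adjusted p = 0.233, edgeR). Irf7, Bst2 and Trim30a had log2 fold changes of 0.13, 0.15 and 0.08.

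Of 45 immediate early and dissociation response genes, whose RNA can rise during tissue handling, 34 had negative values (median -0.39), and Myc was the only one at an adjusted p of 0.01. Their sum was 4028 to 4774 CPM in the CC and 4830 to 5512 CPM in the Cb, and 3785 to 4491 CPM in the Cx. This list holds Jun, Ier2, Klf2 and Klf6. Its median has the same sign as those of the lists of immune signalling above, and its part in them was not tested. Myc was at 56.9, 47.2, 74.8 and 67.2 CPM in the CC and 117, 117, 126 and 116 CPM in the Cb, apart in all libraries (log2 fold change -0.95 ± 0.19, SE), and lost the limit without replicate 1 or 2 of the CC or replicate 1, 2 or 3 of the Cb (adjusted p from 0.0127 to 0.022, edgeR). Without replicate 3 or 4 of the CC it was called (adjusted p = 0.00314 and 0.00842, edgeR). Klf2, a transcription factor of quiescent cells, averaged 24.7 CPM ± 10.4 (SD, n = 4) in the CC, 45.0 CPM ± 13.0 in the Cb and 2.06 CPM in the Cx (adjusted p = 0.0442 between CC and Cb, edgeR), and was called without replicate 4 of the CC (log2 fold change -1.21, adjusted p = 0.0049, edgeR). Dusp2 of the same list was called without replicate 3 of the CC and by limma-voom. Among 44 myeloid transcription factors (27 negative, median -0.12) only Zeb2 passed the adjusted p. Zeb2, a zinc finger repressor needed for the identity of tissue macrophages, was at 102, 103, 123 and 153 CPM in the CC and 209, 240, 227 and 195 CPM in the Cb (log2 fold change -0.85 ± 0.12, SE; adjusted p = 0.000138, edgeR). Its exons overlap those of Zeb2os on the other strand. Spi1, Irf8 and Sall1, factors of the macrophage and microglial lineage, did not pass, with log2 fold changes of 0.25, -0.22 and 0.05.

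**Figure D4:**
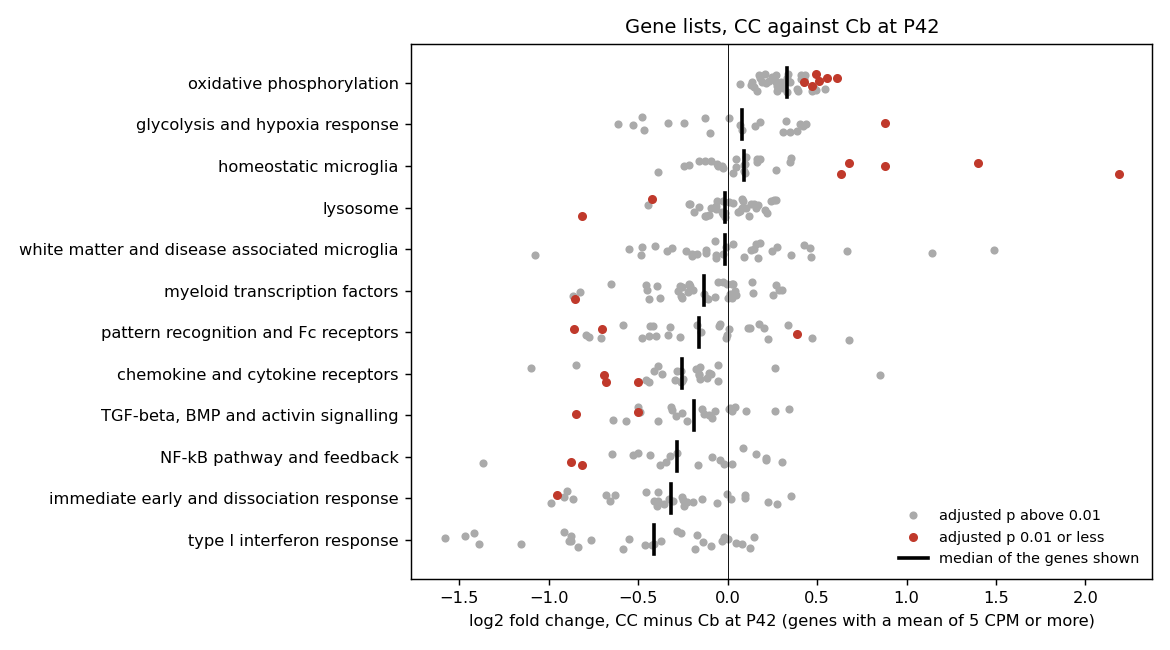
Log2 fold change (CC minus Cb at P42) of the genes of 12 lists that have a mean of 5 CPM or more, 1 point per gene, with a bar at the median of the genes shown. All points of oxidative phosphorylation lie above 0, whereas most of the interferon, NF-kB and receptor lists lie below 0, and red points passed an adjusted p of 0.01.

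Lysosomal and lipid genes showed no common direction. Of 38 lysosomal genes 18 had positive and 20 negative values, the median was -0.02 and 2 passed the adjusted p. One of these was Ctsc (cathepsin C, which activates serine proteases of leukocytes), at 1711, 1733, 1972 and 1351 CPM in the CC and 2823, 2786, 3157 and 3136 CPM in the Cb, a log2 fold change of -0.81 ± 0.10 (SE; adjusted p = 1.55e-05, edgeR). Of 43 genes of cholesterol and lipid handling 21 were positive and 21 negative. Abcg1 (cholesterol export) and Scd2 (fatty acid desaturation) passed the adjusted p higher in the CC, with log2 fold changes of 0.56 and 0.66. The genes of this list that DESeq2 called were all higher in the Cb, Scd1, Sqle and Idi1 among them, as were 316 of the 419 genes it called in all. Without replicate 3 of the CC edgeR called Sqle higher in the Cb as well (log2 fold change -3.63, adjusted p = 0.000296, edgeR). Apoe averaged 1050 CPM ± 189 (SD, n = 4) in the CC and 958 CPM ± 354 in the Cb, against 258 CPM in the Cx.

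None of the 36 genes associated with white matter and disease microglia was called by edgeR, limma-voom or DESeq2, 8 had an unadjusted p under 0.05 (20.5% of all genes did), and their median was -0.02. Axl, a receptor for apoptotic cells, averaged 30.2 CPM ± 21.5 (SD, n = 4) and 63.8 CPM ± 13.6 (adjusted p = 0.0509, edgeR). Without replicate 2 of the CC, which had 62.1 CPM of Axl against 14.7 to 23.0 CPM in the other CC libraries, Axl was called higher in the Cb (log2 fold change -1.69, adjusted p = 0.000821, edgeR). Igf1 averaged 16.3 and 7.39 CPM (adjusted p = 0.133). The 12 genes that the study lists for priming of microglia were not called either, 0 of 12 by edgeR, limma-voom or DESeq2 and 4 with an unadjusted p under 0.05 (20.5% of all genes), with 8 negative values and a median of -0.29. Axl is on this list as well and was the 1 gene of it called without replicate 2 of the CC, where the median was -0.84. The C-type lectin Clec7a averaged 86.8 CPM ± 42.3 (SD, n = 4) in the CC and 121 CPM ± 10.3 in the Cb, with 51.5 to 145 CPM in the CC libraries. Spp1 (osteopontin) was at 12.4, 128, 15.6 and 14.8 CPM in the CC and 46.8, 37.8, 23.6 and 15.6 CPM in the Cb. Its log2 fold change was 0.46 with all libraries and -1.09 without replicate 2 of the CC, which alone held the high value (adjusted p = 0.754 and 0.255, edgeR). With all libraries it was -0.28 by limma-voom and -0.02 by edgeR with a replicate block. Gpnmb averaged 0.282 CPM and 3.84 CPM without overlap (adjusted p = 0.0368, edgeR). Of the 5 phagocytosis genes that the study names, Abca1, Scarb1, Grk6, Gsn and Cd36, 0 were called by edgeR, limma-voom or DESeq2 and 1 had an unadjusted p under 0.05, a share near that of all genes (log2 fold changes of -0.16, 0.20, 0.62, -0.22 and 1.59).

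Of the 13 lists of markers of other cells, 2 genes were called by edgeR (0.421% of all genes were), Pecam1 among 15 tested genes of endothelial cells and pericytes and Siglec1 among 16 of border macrophages, and the latter call held in 1 of the 8 fits with a library left out. DESeq2 called more, among them 4 genes of endothelial cells and pericytes and 3 each of the lists of oligodendrocyte precursors, astrocytes and neurons. Over all 20917 genes it called 419, 103 higher in the CC and 316 higher in the Cb, and limma-voom called 173. In other settings edgeR called Acta2 of the endothelial list higher in the CC. These were the filterByExpr filter, the filter at 5 CPM, and fits without replicate 1, 3 or 4 of the CC or replicate 4 of the Cb. Higher in the Cb were Cbr2 and Folr2 of border macrophages, called without replicates 3 and 4 of the CC in turn. Zbtb46 of dendritic cells was called so without replicate 2 of the CC. Oligodendrocyte markers summed to 577 to 653 CPM in the CC and 516 to 615 CPM in the Cb, of which Mbp and Mog averaged 41.5 and 1.93 CPM in the CC and 45.8 and 0.583 CPM in the Cb. Most of this sum was Trf (386 and 355 CPM) and Cnp (137 and 131 CPM). Of the 18 genes tested 10 had positive and 8 negative values (median log2 fold change 0.09). Border macrophage markers summed to 170 to 225 CPM in the CC and 169 to 190 CPM in the Cb (Mrc1 averaged 14.0 and 25.2 CPM, F13a1 2.62 and 2.98 CPM). Most of that sum was Stab1 (161 and 120 CPM), while of the 16 genes tested 2 had positive and 12 negative values (median log2 fold change -1.20). Astrocyte markers summed to 193 to 240 CPM in the CC and 151 to 167 CPM in the Cb, most of it Slc1a3 (205 and 138 CPM, adjusted p = 0.0128, edgeR), which microglia also express. Of the 16 astrocyte genes tested 7 had positive and 8 negative values (median log2 fold change -0.17), and Gfap and Aqp4 had no read in the CC. Markers of oligodendrocyte precursors summed to 3.22, 4.67, 2.64 and 0.0336 CPM in the CC and 22.2, 17.7, 0.235 and 18.3 CPM in the Cb, with 9 of 11 genes negative, 0 called by edgeR and 7 with an unadjusted p under 0.05 (20.5% of all genes). Their median log2 fold change was -5.13, or -2.04 with genes at the floor of 3 counts set to their bound. Markers of cerebellar neurons and Bergmann glia were at 14.2 to 24.2 CPM in the CC and 23.2 to 35.6 CPM in the Cb, with Slc17a7 at 0 in all 8 libraries. Of these 20 genes 2 had positive and 15 negative values, with 0 called by edgeR and 8 at an unadjusted p under 0.05. Their median log2 fold change was -2.42, or -0.36 with genes at the floor set to their bound. DESeq2 called Fabp7 and Neurod1 and limma-voom Calb2, all higher in the Cb, and edgeR called Fabp7 without replicate 3 of the Cb. Neuronal markers were at 9.03 to 18.9 CPM and 10.3 to 17.3 CPM. Those of neutrophils, red blood cells and choroid plexus were highest in replicate 4 of the CC, where Ngp reached 12.1 CPM, Hbb-bs 7.12 CPM and Ttr 42.7 CPM, and stood at 0 to 0.574 CPM, 0 to 0.414 CPM and 0 to 4.60 CPM as sums in the Cb. Retnlg and Foxj1 had no read in the 8 libraries. In such bulk samples, fewer cells of a type and less RNA per cell cannot be told apart.

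The difference between CC and Cb at P42 was then set against the difference at P10 and P7, each measured in its own libraries (4 a region at P10 and 3 at P7). At P10 17 genes (0.0813%) and at P7 15 genes (0.0717%) were called between the regions. Of the 41 non-overlapping genes of P42, 23 had the same sign at P10 and 26 at P7. None of them was called at P7 and 1 was called at P10, Gm44545, in the opposite direction. The difference between the regions itself changed from P10 to P42 past both limits in 26 genes (0.124%) and from P7 to P42 in 27 genes (0.129%), by a test of the interaction in the same model. In the first, the difference was higher at P42 for 17 genes and lower for 9, but fitted on the 16 libraries of CC and Cb at both ages the test called 4, 1 higher (Upk1b) and 3 lower. Against P7, 19 were higher and 8 lower, and the 14 libraries gave 11 and 3.

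Among the named genes higher in the CC whose change passed both limits, Upk1b, Khdrbs3 and Pecam1 had the largest changes from P10. As the genes were named for their difference at P42, which the interaction uses again, large changes among them were favoured by the choice. On the 16 libraries of P10 and P42, edgeR called the change of Upk1b (adjusted p = 0.0011) and not those of Khdrbs3 (0.0111), Pecam1 (0.054), Fcrl1 (0.0226) and H2-Oa (0.0453), whose log2 values moved by little. On the 14 libraries of P7 and P42 it called those of Crybb1 (adjusted p = 0.000293) and H2-Oa (0.00539), and not those of Upk1b (0.0141), Khdrbs3 (0.021), Pecam1 (0.0326) and Fcrl1 (0.0326). In the 33 libraries limma-voom did not call the changes from P7 of Upk1b, Khdrbs3 and Pecam1 (adjusted p = 0.0145, 0.0172 and 0.0174), and that of Fcrl1 was lost with a replicate block (adjusted p = 0.0135, edgeR). The change of Pecam1 from P10 was lost without replicate 2 of the Cb (adjusted p = 0.0102, edgeR). They were not called higher in the CC at the younger ages. Upk1b averaged 3.55 and 11.8 CPM in the CC and Cb at P7, 17.8 and 48.2 CPM at P10 and 166 and 36.4 CPM at P42. Its log2 difference went from -1.44 at P10 (adjusted p = 0.0201, edgeR) to 2.19 at P42, by 3.62 ± 0.47 (SE; adjusted p = 0.000316, edgeR), and from P7 by 3.90 ± 0.52. Khdrbs3 was alike in both regions at P10 (30.1 and 29.6 CPM) and P7 (13.0 and 14.4 CPM), and its difference grew by 2.07 ± 0.29 from P10 and by 2.25 ± 0.32 from P7 (SE; adjusted p = 0.000452 and 0.000181, edgeR). Pecam1 averaged 37.1 CPM in the CC and 63.1 CPM in the Cb at P10 and 16.4 and 33.9 CPM at P7 (adjusted p = 0.209 and 0.312, edgeR), and the change from P10 was 2.61 ± 0.44 (SE; adjusted p = 0.00247, edgeR). For Fcrl1 the change from P10 was 1.50 ± 0.22 and for H2-Oa 1.22 ± 0.20 (SE; adjusted p = 0.000514 and 0.00211, edgeR). Crybb1 fell short of the fold limit against P10 (0.91 ± 0.14, SE) and passed against P7 (1.33 ± 0.15, SE), as it averaged 839 and 599 CPM at P10 and 612 and 586 CPM at P7.

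**Figure D5:**
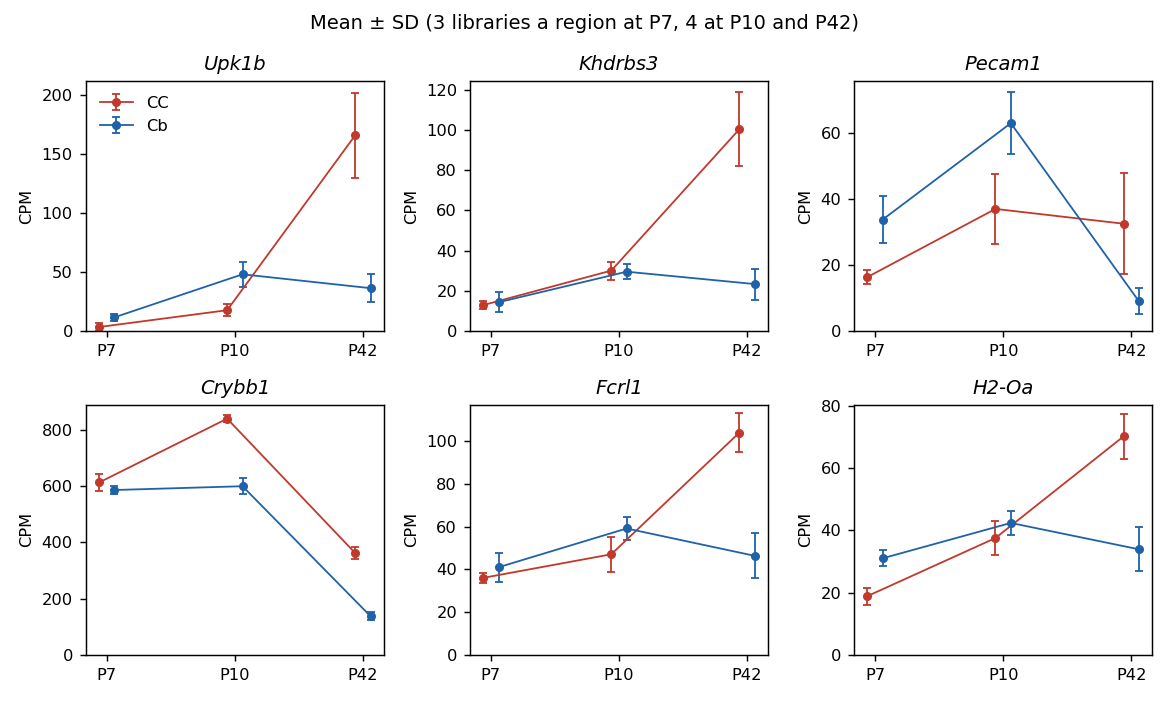
Mean CPM of 6 genes in the CC and Cb at P7, P10 and P42, with error bars of 1 SD over 3 libraries a region at P7 and 4 at P10 and P42. At P42 all 6 genes have the higher mean in the CC, Upk1b, Pecam1, Fcrl1 and H2-Oa have the higher mean in the Cb at P7 and P10, Khdrbs3 at P7 alone, and Crybb1 has lower means at P42 than at P10 in both regions, 362 CPM in the CC and 137 CPM in the Cb.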

How the data were processed

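RNA of sorted microglia was amplified with the SMARTer Ultra Low kit, and libraries were made with Nextera XT. Per the submitters' processing notes, reads were demultiplexed with CASAVA 1.8.2, aligned to GRCm38 with STAR 2.5.2b and counted with featureCounts 1.6.2; the authors deposited raw read counts per gene, with reads mapping to several places or genes discarded. Whether counting used strand is not given in the sources used here. Discarding shared reads lowers the counts of genes with near copies.

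From the counts, 92 spike-in sequences were left out, 48587 genes were reduced to the 31375 with a read, and the 10458 with the lowest summed counts were removed, leaving 20917. TMM factors and edgeR 4.0.16 (quasi-likelihood, robust, R 4.3.3) were used with 9 groups over the 33 libraries, and p-values were adjusted by Benjamini-Hochberg over all genes tested. A gene was called when its adjusted p did not exceed 0.01 and its log2 fold change was at least 1 in size. Depth was 22761090 to 45057646 reads in the 8 libraries. Genes were named by rule: up to 15 per direction by fold change among those called, at 5 CPM or more in the higher region and without overlap between regions; every called list member; the 2 members of each list with the highest mean and the 2 with the largest fold change at 5 CPM or more; the genes the study names; and defining markers. Named after their values were seen were Tmem44, Il1rl2, Gm44545, Racgap1, Slfn2, Slfn5, Ifi27l2a, Oasl1, Tnfrsf17, Dusp2, the other list members said to pass the adjusted p alone (Fcrls, Il17ra, Csf2ra, Abcg1, Scd2, Ndufb8, Ndufb9, Ndufv1, Sdhc), the examples that did not pass (Rsad2, Irf7, Bst2, Trim30a, Ikbkb, Ikbkg, Nfkbie, Spi1, Sall1) and other markers. The comparison, the lists and these rules were chosen with earlier results of these data known. Alternatives were RLE factors, other filters, sex or replicate number in the model, and fewer libraries. Others were limma-voom (limma 3.58.1), DESeq2 1.42.0 and each library left out. The filter at a mean of 5 CPM and thinning to the smallest total were added after seeing the data. So was the fit of the comparison with P7 on 14 libraries. The code was tested on simulated counts. Some results, 1 called gene among them, are not reported here.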

Additional observations from a re-analysis of the deposited data

Results flagged for a closer look

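In 15 of 154 groups of 4 libraries, 1 library lay apart from the other 3 by Dixon's criterion, which chance alone gives in about 1 in 20 groups. Among genes these were Actg2 in replicate 2 of the CC (32.0 CPM), Zfp51 and Ezh2 in replicate 3 of the CC (6.41 and 7.54 CPM), Siglec1 in replicate 4 of the CC (0.0336 CPM, 1 read), Myc in replicate 3 of the Cb (126 CPM), and Epn2 and N4bp2 in replicate 4 of the Cb (18.7 and 2.14 CPM). Among summed levels, replicate 4 of the CC was the lowest for the interferon list (956 CPM), lysosomal genes (80010 CPM) and oligodendrocyte markers (577 CPM), replicate 1 of the CC the highest for monocyte markers (20.1 CPM) and replicate 2 for neuronal markers (18.9 CPM). In the Cb, replicate 3 was the highest for chemokines and cytokines (2067 CPM) and neutrophil markers (0.574 CPM), and replicate 4 for endothelial markers (868 CPM).

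By the interaction test of edgeR in all 33 libraries, the difference between CC and Cb changed with age past both limits in 13 of the genes named by rule. Most genes were named for their difference at P42, which this test uses again, so large changes among them were favoured by the choice. On the 16 libraries of P10 and P42 the test called 4 genes in all, and on the 14 of P7 and P42 it called 14. Against P10 the log2 difference at P42 was higher by 3.62 for Upk1b, 2.61 for Pecam1, 2.07 for Khdrbs3, 1.55 for Ezh2, 1.50 for Fcrl1, 1.42 for Bank1, 1.22 for H2-Oa and 1.12 for Slc2a5, and B430010I23Rik had a value of -2.82. Against P7 it was higher by 3.90 for Upk1b, 2.89 for Pecam1, 2.25 for Khdrbs3, 1.86 for Epn2, 1.77 for H2-Oa, 1.35 for Fcrl1, 1.33 for Crybb1 and 1.14 for Slc2a5, and the values were -1.25 for Tgfbi and -1.16 for Cd83. Of the genes named after their values were seen, Racgap1 had values of -4.63 against P10 and -4.91 against P7, and Gm44545 of -2.70 against P10. The comparisons with P10 and P7 use the same P42 libraries.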

How the results depend on the processing

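The number of genes called between CC and Cb at P42 depended most on the tool and on the libraries fitted. Against 88 genes, limma-voom called 173 (18 higher in the CC and 155 in the Cb, 54 of them among the 88) and DESeq2 419 (87 of the 88 among them). The 12 libraries of P42 alone gave 8, the 8 libraries alone 1 (2284 at an unadjusted p under 0.05), and these 8 with a replicate block 0 (1785). Leaving out 1 library gave 46 to 143, with 46 without replicate 1 and 47 without replicate 2 of the Cb and 143 without replicate 3 of the CC. Requiring a mean of 5 CPM gave 65 genes, 26 higher in the CC and 39 in the Cb, against 22 and 66. The interaction with P10 gave 26 genes, 42 by limma-voom (23 up), 269 by DESeq2 (104 up), 4 in 16 libraries (1 up, against 17) and 13 to 40 with 1 library left out (13 without replicate 2 of the Cb and 40 without replicate 4 of the CC). That with P7 gave 27 genes, 41 by limma-voom (13 up, against 19), 208 by DESeq2 (97 up), 14 in 14 libraries (11 up) and 23 to 45 with 1 library left out (45 without replicate 3 of the CC). The cause was not tested.

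The labels give both regions replicate numbers 1 to 4. Libraries with the same number showed little shared deviation (correlations of deviations 0.0544, -0.00551, 0.0152 and 0.0274), and they were not treated as pairs. Libraries with unlike numbers gave -0.0611 to 0.0381. Such correlations cannot show whether libraries came from the same mice. With a replicate block in all 33 libraries 69 genes were called at P42, 57 of them among the 88 of the main fit. For the interactions with P10 and P7 the block gave 20 and 30. The median log2 fold change of all genes was -0.14 with the block and -0.12 with limma-voom, against -0.04. Of 43 single genes followed through up to 20 alternatives, 0 changed direction, and 19 stayed past their limits with any of the 8 libraries left out. The 43 were chosen for an adjusted p of 0.01 or less in the main fit, and the alternatives use the same libraries. A change of direction was therefore unlikely from the start. Spp1, which was not chosen in this way, did change sign, as given above. Few reads limit genes under 5 CPM, above all in the CC.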

Other observations

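Among the called genes at low levels, Racgap1, a regulator of cytokinesis chosen after its values were seen, averaged 0.155 CPM in the CC and 4.37 CPM in the Cb (adjusted p = 1.57e-05, edgeR). The list of 24 cell division genes had 0 called by edgeR and 8 with an unadjusted p under 0.05 (20.5% of all genes). DESeq2 called 2 of them, where it called 419 of all 20917 genes. The sum of the 24 genes was 39.0 to 64.6 CPM in the CC and 46.6 to 56.7 CPM in the Cb, which overlapped. Of these genes 9 had positive and 15 negative values (median log2 fold change -0.48, or -0.21 with genes at the floor set to their bound). EdgeR called Aurkb, Mki67 and Mcm2 without replicates 1, 2 and 3 of the CC in turn, and Tpx2 without replicate 4 of the Cb. Mcm2 was also called by limma-voom, and all these calls were higher in the Cb. Racgap1 lies in the range of levels in which the CC libraries had more genes without a read, and the part of this in its difference was not tested.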
